A study of Drosophila melanogaster with 3 samples.

Results

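The regions described here are candidate binding regions whose summit lies at the start of a non-coding RNA gene and away from the starts of protein-coding genes. They were taken from the list of 30000 candidate regions that the authors called on pooled reads, by keeping each region whose summit lay within 500 bp of an annotated transcription start site (TSS) of a gene of the Ensembl class ncRNA and more than 1000 bp from every protein-coding TSS. Of the 30000 candidates 716 met the rule, and they are called ncRNA-start candidates below. Candidates over 1000 bp from every protein-coding TSS and over 500 bp from every ncRNA TSS are called other distal candidates and numbered 20793. The 6096 candidates within 500 bp of a protein-coding TSS are called coding-start candidates.

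The libraries came from anti-GFP chromatin immunoprecipitation of whole Drosophila melanogaster prepupae, with both sexes pooled and the age labelled as 24 hours. The transgenic line carried CG9139 with green fluorescent protein at its C-terminus, and sonicated chromatin had a labelled size of 200 to 800 bp. The 3 biological replicates formed 1 group, so the data hold no treated or mutant group. The tagged protein, also named Rabex-5, activates Rab5 on endosomes and can act as a ubiquitin ligase. No library from untagged animals was analysed here. In whole animals, strong binding in few cells and weak binding in many cells cannot be told apart.

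Long non-coding RNAs are transcripts with no evident protein product, made by RNA polymerase II from their own promoters. Some act as RNAs, such as the roX RNAs that guide the dosage compensation complex to the male X chromosome. Others mainly serve as the primary transcript from which microRNAs or small nucleolar RNAs are cut. MicroRNAs pair with messenger RNAs through the seed near their 5′ end and lower the output of those messengers. For a microRNA the annotated start is the end of the hairpin or mature RNA and not the place where transcription begins. Positions below are in bp from the nearest ncRNA TSS, on the strand of the RNA, with negative values upstream.

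The sequences of a few ncRNA-start candidates are shown because the strongest results rest on them. They were read from the RefSeq copy of the Release 6 (dm6) assembly on the strand of the RNA, with matches to the motifs named further on in capitals. The first is the promoter of lncRNA:CR31044, from 250 bases before to 49 bases after its TSS (chr3R:29214312-29214611, + strand), since the ncRNA-start candidate of highest signal lies there. The capitals TATAAA in it begin at -33 bp, the usual place of a TATA box. The second is the same stretch around the TSS of the heat-shock RNA gene lncRNA:Hsromega that lies nearest to its summits (chr3R:21296371-21296670, + strand), where TATAAA begins at -30 bp.
lncRNA:CR31044 promoter: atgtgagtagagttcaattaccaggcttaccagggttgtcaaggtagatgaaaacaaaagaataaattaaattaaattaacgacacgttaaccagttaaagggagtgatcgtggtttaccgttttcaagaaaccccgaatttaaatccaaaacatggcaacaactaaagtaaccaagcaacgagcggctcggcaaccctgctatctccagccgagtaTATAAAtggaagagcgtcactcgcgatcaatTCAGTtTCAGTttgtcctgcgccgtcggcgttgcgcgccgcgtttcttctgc
lncRNA:Hsromega promoter: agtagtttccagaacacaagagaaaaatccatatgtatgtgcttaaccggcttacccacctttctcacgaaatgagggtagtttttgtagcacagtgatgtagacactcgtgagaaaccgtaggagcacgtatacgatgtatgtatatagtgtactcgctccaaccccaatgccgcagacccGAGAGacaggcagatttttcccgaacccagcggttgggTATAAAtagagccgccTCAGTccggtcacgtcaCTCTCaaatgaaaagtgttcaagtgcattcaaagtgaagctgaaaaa

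Windows of 201 bases centred on the summit are shown for 4 further candidates. They lie beside mir-276a (chr3L:10364972-10365172, + strand), in lncRNA:CR44619 (chrX:12752236-12752436, + strand), before lncRNA:CR46036 (chr3R:17700529-17700729, + strand) and before lncRNA:CR44742 (chr2L:5287669-5287869, + strand). Their G and C content was 34.8%, 30.8%, 29.4% and 27.9%, and the last window holds none of the 9 motifs.
mir-276a: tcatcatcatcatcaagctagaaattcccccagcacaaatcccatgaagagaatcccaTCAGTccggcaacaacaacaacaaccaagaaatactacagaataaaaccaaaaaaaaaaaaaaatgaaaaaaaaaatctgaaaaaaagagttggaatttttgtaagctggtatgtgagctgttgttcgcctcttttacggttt
lncRNA:CR44619: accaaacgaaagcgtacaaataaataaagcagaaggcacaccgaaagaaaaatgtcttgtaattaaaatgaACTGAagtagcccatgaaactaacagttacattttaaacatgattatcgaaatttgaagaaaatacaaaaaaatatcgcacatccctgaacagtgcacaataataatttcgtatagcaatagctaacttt
lncRNA:CR46036: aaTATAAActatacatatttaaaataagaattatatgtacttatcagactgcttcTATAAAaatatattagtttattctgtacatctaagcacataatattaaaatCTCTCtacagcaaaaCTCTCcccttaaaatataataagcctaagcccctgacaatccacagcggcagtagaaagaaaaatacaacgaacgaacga
lncRNA:CR44742: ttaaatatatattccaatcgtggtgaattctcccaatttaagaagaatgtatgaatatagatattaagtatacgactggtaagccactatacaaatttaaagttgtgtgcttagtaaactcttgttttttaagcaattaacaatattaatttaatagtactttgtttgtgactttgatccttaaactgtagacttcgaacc

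The mature microRNAs cut from the transcripts at the strongest of these sites are shown with the seed, bases 2 to 8, in capitals. They are written as genomic DNA. The mature arms mir-279-RA and mir-996-RA share the seed GACTAGA, and both hairpins lie in lncRNA:CR31044.
mir-279-RA (chr3R:29215651-29215672, + strand): tGACTAGAtccacactcattaa
mir-996-RA (chr3R:29217244-29217265, + strand): tGACTAGAtttcatgctcgtct
mir-276a-RB (chr3L:10365281-10365302, + strand): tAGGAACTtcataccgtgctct

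The 716 ncRNA-start candidates had 583 nearest ncRNA genes, which is 17.6% of the 3304 genes annotated as ncRNA. Long non-coding RNAs were nearest to 633 of the candidates, antisense RNAs to 42, microRNA hairpins or mature microRNAs to 36, and other ncRNAs to 5. Most genes had a single such candidate (466 genes), while 102 had 2, 14 had 3 and lncRNA:CR46006 had 4. Because neighbouring summits can belong to overlapping regions, the 716 candidates merged into 609 separate regions. The summit lay in an annotated exon of an ncRNA at 329 of them (45.9%) and in coding sequence at 8.

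Candidate summits away from coding starts were densest just upstream of ncRNA starts. There were 97 summits from -100 to -1 bp and 100 from -200 to -101 bp, and 76 from -300 to -201 bp. In the 100-bp steps from -2000 to -501 bp the number ranged from 37 to 61. Downstream the counts stayed above most of those steps, with 71 summits from 0 to 99 bp, 59 to 78 in the next 4 steps and 83 from 600 to 699 bp. In all, 373 of the 716 summits (52.1%, exact 95% binomial interval 48.4 to 55.8) lay upstream of the nearest ncRNA TSS and 168 (23.5%) within 100 bp of it. The intervals given here cover counting error only.

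**Figure D1:**
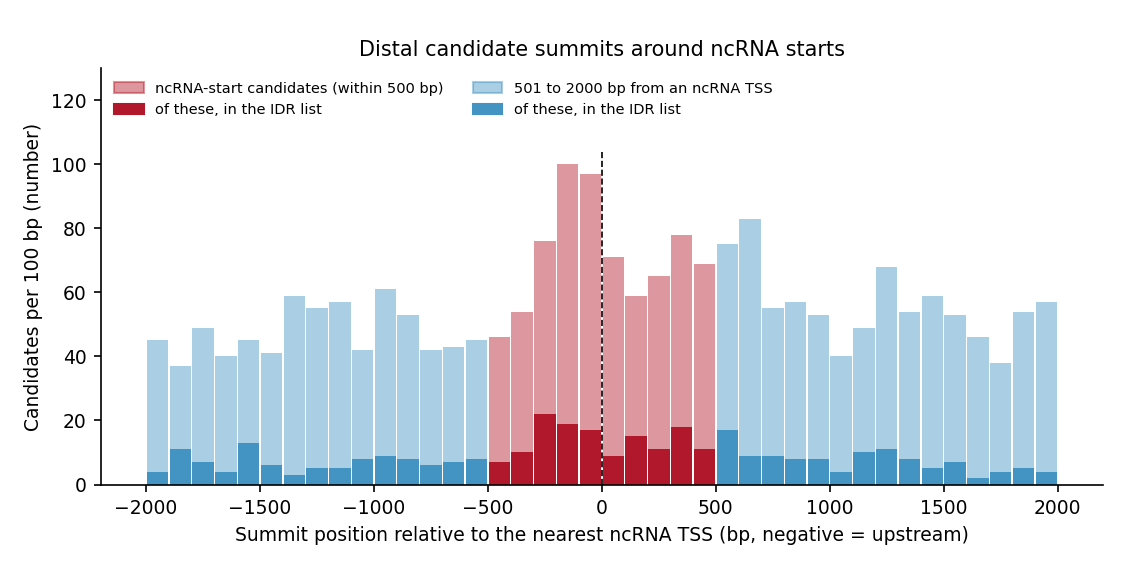
Number of pooled candidate summits over 1000 bp from every protein-coding TSS (y axis, per 100 bp) against position relative to the nearest ncRNA TSS (x axis, bp). Pale bars are all candidates and dark bars those in the IDR list, red within 500 bp and blue beyond; the highest bars are the 100 and 97 summits just upstream of the start.

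The authors thresholded candidates by the irreproducible discovery rate (IDR), which rests on how well strength recurs between replicates over a whole list. In the pooled list 16.4% of all candidates (4934 of 30000) were in this IDR list, which held exactly the candidates of highest signal. Membership thus followed pooled signal, and a single listed candidate need not be strong in every replicate. Of the ncRNA-start candidates 139 of 716 were in it (19.4%, interval 16.6 to 22.5), against 2482 of 20793 other distal candidates (11.9%, interval 11.5 to 12.4). Coding-start candidates were in it more often, at 1860 of 6096 (30.5%, interval 29.4 to 31.7). The ncRNA-start share thus stood above that of other distal candidates, below that of coding-start candidates and a little above the share of all candidates. The 139 candidates belonged to 132 ncRNA genes and 135 separate regions.

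The share in the IDR list did not peak at the TSS itself. It was 15.5% within 100 bp (26 of 168), 21.2% from 101 to 200 bp, 23.6% from 201 to 300 bp, 20.9% from 301 to 400 bp and 15.8% from 401 to 500 bp, and the intervals of these 5 bins overlapped. Beyond the ncRNA-start window the share was 15.9% from 501 to 1000 bp and 11.7% over 5000 bp from an ncRNA TSS. By class, the IDR list held 129 of 633 candidates at long non-coding RNAs (20.4%), 3 of 42 at antisense RNAs (7.14%), 5 of 36 at microRNA ends (13.9%, interval 4.67 to 29.5) and 2 of 5 at other ncRNAs. Upstream and downstream candidates had like shares, 20.1% and 18.7%.

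Whether the excess over other distal candidates recurred in single replicates was examined in the replicates' own candidate lists. Each replicate's 4934 candidates of highest signal were taken as its strongest, as many as there are IDR peaks. In replicates 1, 2 and 3, 22.3%, 21.6% and 24.6% of the ncRNA-start candidates overlapped a strongest candidate, against 14.7%, 13.9% and 14.6% of the other distal candidates. Over all pooled candidates the shares were 19.7%, 19.2% and 20.1%, nearer to those of the ncRNA-start candidates. The ncRNA-start share was higher than that of other distal candidates in 3 of 3 replicates, by 8.44 ± 1.30 percentage points (SD, n = 3, exact two-sided sign-flip permutation p = 0.25, the smallest that 3 replicates allow). Against coding-start candidates (36.0 ± 1.06%) the ncRNA-start candidates (22.9 ± 1.53%) differed by -13.1 ± 1.15 points, again in the same direction in every replicate.

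Signal was set on a common scale by dividing it by the replicate's median over the IDR peaks. On this relative scale, where 1 is the median IDR peak, the median ncRNA-start candidate stood at 0.382, 0.428 and 0.458 in replicates 1, 2 and 3. The median other distal candidate stood at 0.332, 0.361 and 0.368. Over all pooled candidates the medians were 0.369, 0.408 and 0.409. The replicate medians of ncRNA-start and other distal candidates did not overlap, and their difference averaged 0.0691 ± 0.0197 (SD, n = 3, exact sign-flip permutation p = 0.25). The candidates themselves overlapped widely. In replicate 1 the lower and upper quartiles were 0.253 and 0.657 for ncRNA-start candidates, against 0.242 and 0.539 for other distal candidates. The ncRNA-start medians cover the candidates that the replicate lists, which were 576, 538 and 555 of the 716.

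**Figure D2:**
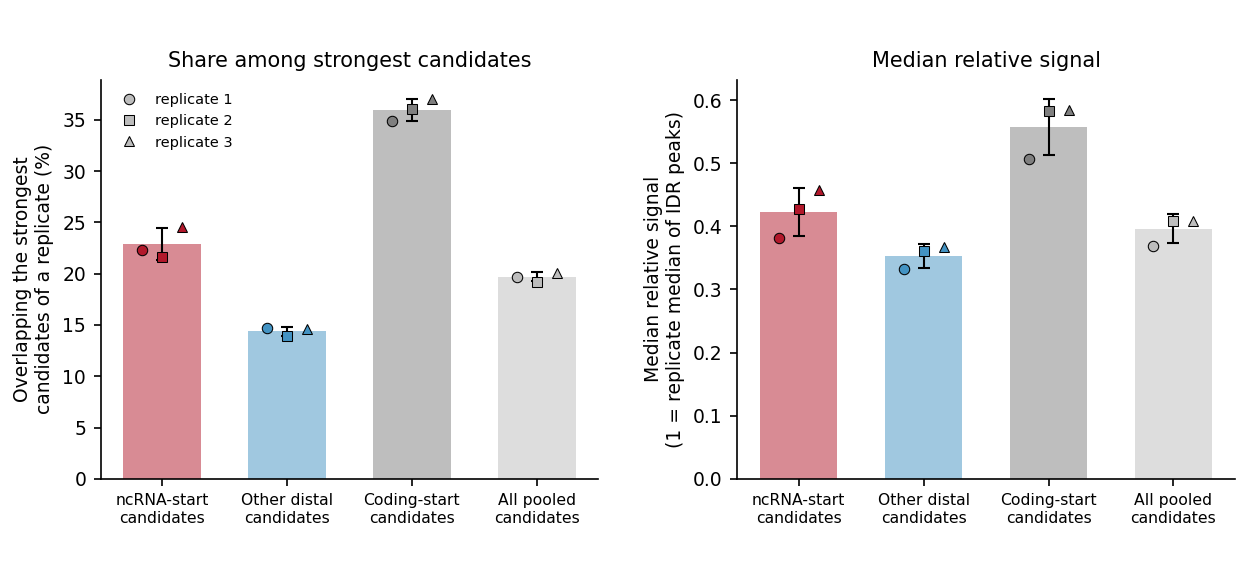
Left, percent of candidates in 4 groups that overlapped the strongest 4934 of a replicate; right, median relative signal (1 is the replicate's median IDR peak). Points are the 3 replicates, bars their mean and error bars the SD. In both panels every replicate of the ncRNA-start candidates lies above its own value for other distal candidates and below its own value for coding-start candidates.

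Recurrence in all 3 replicates was met by 11.7% of all pooled candidates. Among the ncRNA-start candidates 96 of 716 overlapped a strongest candidate in all 3 (13.4%, interval 11.0 to 16.1), against 8.57% of other distal candidates. At the other end, 475 (66.3%) did so in none, for which the share over all candidates was not computed. A wider measure, presence anywhere in the list of every replicate, was met by 387 ncRNA-start candidates (54.1%). It was met by 47.2% of all candidates, 41.4% of other distal candidates and 64.8% of coding-start candidates. Within the IDR list, 75 of the 139 ncRNA-start candidates recurred among the strongest of all 3 (54.0%), against 58.0% of all IDR peaks. Those that passed the threshold thus recurred about as often as IDR peaks in general. A further 38 were among the strongest of 2 replicates, and 26 (18.7%) among those of only 1 replicate. For these counts the share over all IDR peaks was not computed. Of the 21 ncRNA-start candidates outside the IDR list that recurred in all 3, 20 overlapped an IDR peak. Across candidates listed in both replicates of a pair, Spearman's rho of relative signal was 0.694 to 0.727 for ncRNA-start candidates (446 to 460 regions) and 0.644 to 0.670 for other distal candidates. These regions share libraries and are not independent.

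The position of the candidates relative to coding genes differed between the groups. Only 206 of 716 ncRNA-start candidates (28.8%) lay inside a protein-coding gene, against 64.4% of other distal candidates. The host gene ran on the opposite strand to the ncRNA at 133 of them, on the same strand at 70 and on both at 3. The IDR share was therefore compared within places. Outside coding genes 102 of 510 ncRNA-start candidates were in the list (interval 16.6 to 23.7%), against 9.73% of other distal candidates (interval 9.06 to 10.4%). Inside coding genes it was 18.0% (37 of 206, interval 13.0 to 23.9), against 13.2%, and there the intervals overlapped.

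Distance to the nearest coding TSS was handled in the same way. From 1001 to 2000 bp the IDR share was 27.2% of ncRNA-start candidates (interval 19.9 to 35.5), against 15.1% of other distal candidates. From 2001 to 5000 bp it was 20.8% of ncRNA-start candidates, against 13.4% of other distal candidates. From 5001 to 10000 bp it was 13.8% of ncRNA-start and 10.9% of other distal candidates, and over 10000 bp it was 16.4% of ncRNA-start and 9.84% of other distal candidates. The ncRNA-start share was the higher one in each of the 4 bins, and only from 5001 to 10000 bp did the intervals overlap.

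**Figure D3:**
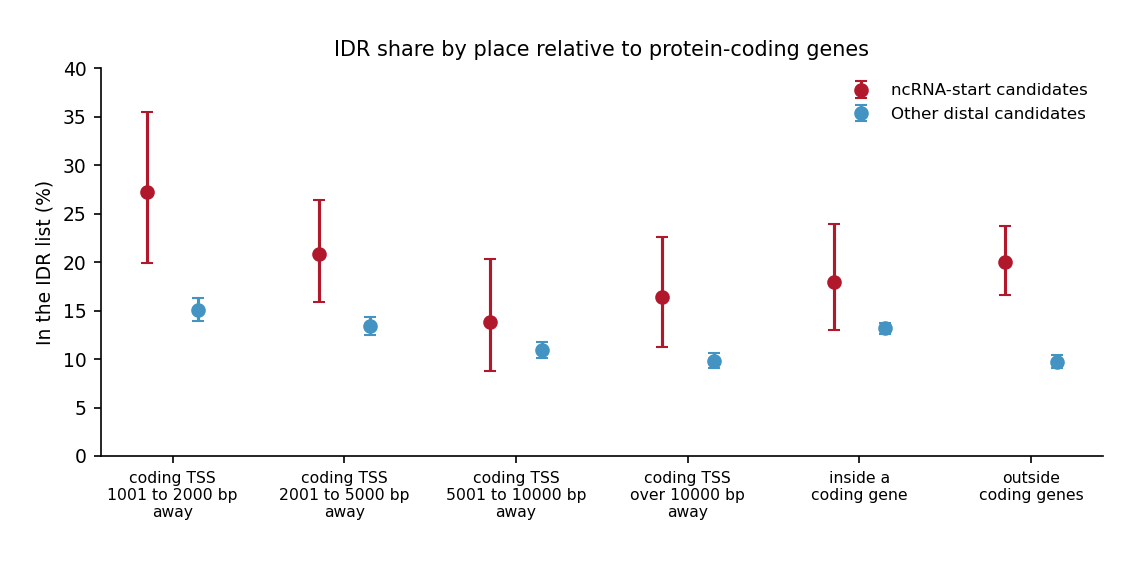
Percent of candidates in the IDR list (y axis) by distance from the nearest protein-coding TSS and by place inside or outside a protein-coding gene (x axis). Red is ncRNA-start candidates and blue other distal candidates, with exact 95% binomial intervals; red lies above blue in all 6 places, with overlapping intervals at 5001 to 10000 bp and inside coding genes.

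By chromosome, the X chromosome held 68 ncRNA-start candidates, 9.50% of the 716, whereas it held 17.9% of all candidates and 11.2% of the ncRNA genes, microRNAs left out, that have a TSS over 1000 bp from coding TSSs. On the X 17 of 68 ncRNA-start candidates were in the IDR list (interval 15.3 to 37.0%), against 12.5% of other distal candidates. On the larger autosomal arms the ncRNA-start share ran from 17.1% to 21.8%, with other distal shares of 11.0% to 12.9%. Chromosome 4 had 3 ncRNA-start candidates and none in the IDR list.

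The strongest ncRNA-start candidate lay before lncRNA:CR31044 (FBgn0051044), the primary transcript of mir-279 and mir-996, whose promoter is shown above. The mir-279 family acts in the specification of sensory neurons and in JAK/STAT signalling. Its summit stood at -116 bp in a region at chr3R:29214250-29214610, -5726 bp from the nearest coding TSS, that of eEF1gamma. The pooled signal was 1202, rank 29 of 30000. Relative signal was 7.70, 4.87 and 6.08 in replicates 1, 2 and 3 (6.22 ± 1.42, SD, n = 3), so each replicate placed it several times above its median IDR peak. A further IDR candidate stood inside the transcript, 642 bp from its start and at -381 bp from the mir-279 hairpin, with a pooled signal of 281 and relative signals of 2.03, 0.862 and 1.24. Another summit at -177 bp from the hairpin, of signal 82.5, was not in the IDR list.

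Genes that carry microRNAs or small nucleolar RNAs were taken as a list. Of its 47 genes 38 have a TSS over 1000 bp from coding TSSs, 23 had an ncRNA-start candidate and 8 had one in the IDR list. All 8 are hosts of microRNAs. Taking the 37 ncRNA genes that enclose a microRNA hairpin on the same strand, 22 (59.5%) had an ncRNA-start candidate, against 526 of 2520 other ncRNA genes (20.9%), and 8 (21.6%) had one in the IDR list, against 119 (4.72%). Among genes with a candidate, 36.4% of the microRNA hosts (8 of 22) and 22.6% of the others (119 of 526) had an IDR one. The host share rests on few genes, and no interval was computed for it. The hosts are longer, with a median length of 6436 bp against 704 bp, and have more TSSs, 1.65 against 1.06 per gene. A TSS over 1000 bp from coding TSSs, which the rule favours, was present in 33 of the 37 hosts and 1767 of the 2520 others. The part of length, TSS number and distance from coding TSSs in these shares was not tested.

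Next to CR31044 in signal among the hosts was the mir-276a locus. The IDR candidate at -156 bp from the mir-276a hairpin, a microRNA known for a role in olfactory memory, had a pooled signal of 593 and relative signals of 3.35, 2.60 and 3.59 (3.18 ± 0.517, SD, n = 3). The hairpin lies near the 3′ end of lncRNA:CR46006, a transcription unit with several annotated starts. Its 4 ncRNA-start candidates had pooled signals of 222, 143, 120 and 99.9, of which the first 3 were in the IDR list. Those of signal 143 and 120 overlapped one another and shared their replicate regions. The strongest of the 4, at -71 bp from an internal TSS, had relative signals of 0.911, 1.84 and 1.31. The highest signal in the unit, 641, belonged to an IDR peak that was not near an annotated start.

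Of the remaining hosts, lncRNA:CR43651, which carries mir-14, a regulator of cell death and fat metabolism, had an IDR candidate at -20 bp with signal 322 and relative signals of 2.03, 1.01 and 2.07. lncRNA:CR43650, with the growth regulator mir-8, had one inside the gene, at -30 bp from an internal TSS, of signal 211 and relative signals of 1.19, 1.33 and 0.981. lncRNA:CR43857, with mir-275, had one at -191 bp of signal 196 and relative signals of 0.804, 1.15 and 1.70. The 3 genes thus lay around the median IDR peak, with mir-14 at or above it in every replicate. lncRNA:CR45361, with the muscle microRNA mir-1, had an IDR candidate of signal 122 at 441 bp, with relative signals of 0.793, 0.483 and 0.842, below the median IDR peak in every replicate.

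lncRNA:CR43626, the host of mir-282, had IDR candidates at 2 annotated starts. One, at -275 bp, had a signal of 112 and relative signals of 0.736, 0.851 and 0.567, below the median IDR peak in every replicate. The other, at -211 bp, had a pooled signal of 135, but it overlapped a region of signal 619 whose summit lies 910 bp from a coding TSS and which is therefore no ncRNA-start candidate. The replicate values of 3.79, 3.05 and 3.02 were read from the strongest overlapping region and can be those of that neighbour. In all, 6 of the 139 IDR candidates overlapped a stronger pooled candidate. Other well-known microRNA hosts fell short of the IDR list. lncRNA:CR45916, with the neural microRNA mir-9a, had a candidate of signal 103 at -105 bp, listed in replicates 2 and 3 but not in replicate 1. lncRNA:CR43334, with the growth-promoting microRNA bantam, had 3 candidates of signal 84.0, 74.7 and 70.4. The highest signals at the other hosts outside the IDR list ran from 26.2 at iab8 to 76.7 at lncRNA:CR44206, the host of mir-184. Between them lay asRNA:CR17025 with mir-252 (70.1), lncRNA:CR43314 with mir-bft (66.6), lncRNA:CR43459 with mir-277 and mir-34 (66.1), lncRNA:CR42651 with mir-10 (65.8) and lncRNA:CR46004 with mir-276b (64.3). Of the Uhg genes, whose introns hold small nucleolar RNAs, none of those annotated (Uhg1 to Uhg5, Uhg7 and Uhg8) had an ncRNA-start candidate. The rule could not reach Uhg2, Uhg5 and Uhg8, whose starts lie at most 284, 281 and 429 bp from a coding TSS. It could reach only part of the window around Uhg1 and Uhg4, whose starts lie at most 735 and 615 bp from one. Candidates outside the IDR list lay 70 bp from a start of Uhg2 (signal 79.3) and 30 bp from one of Uhg8 (signal 62.4). The candidate at 91 bp from a start of lncRNA:let7C, with let-7, mir-100 and mir-125, had signal 99.6 and lay too near a coding TSS to be counted.

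**Figure D4:**
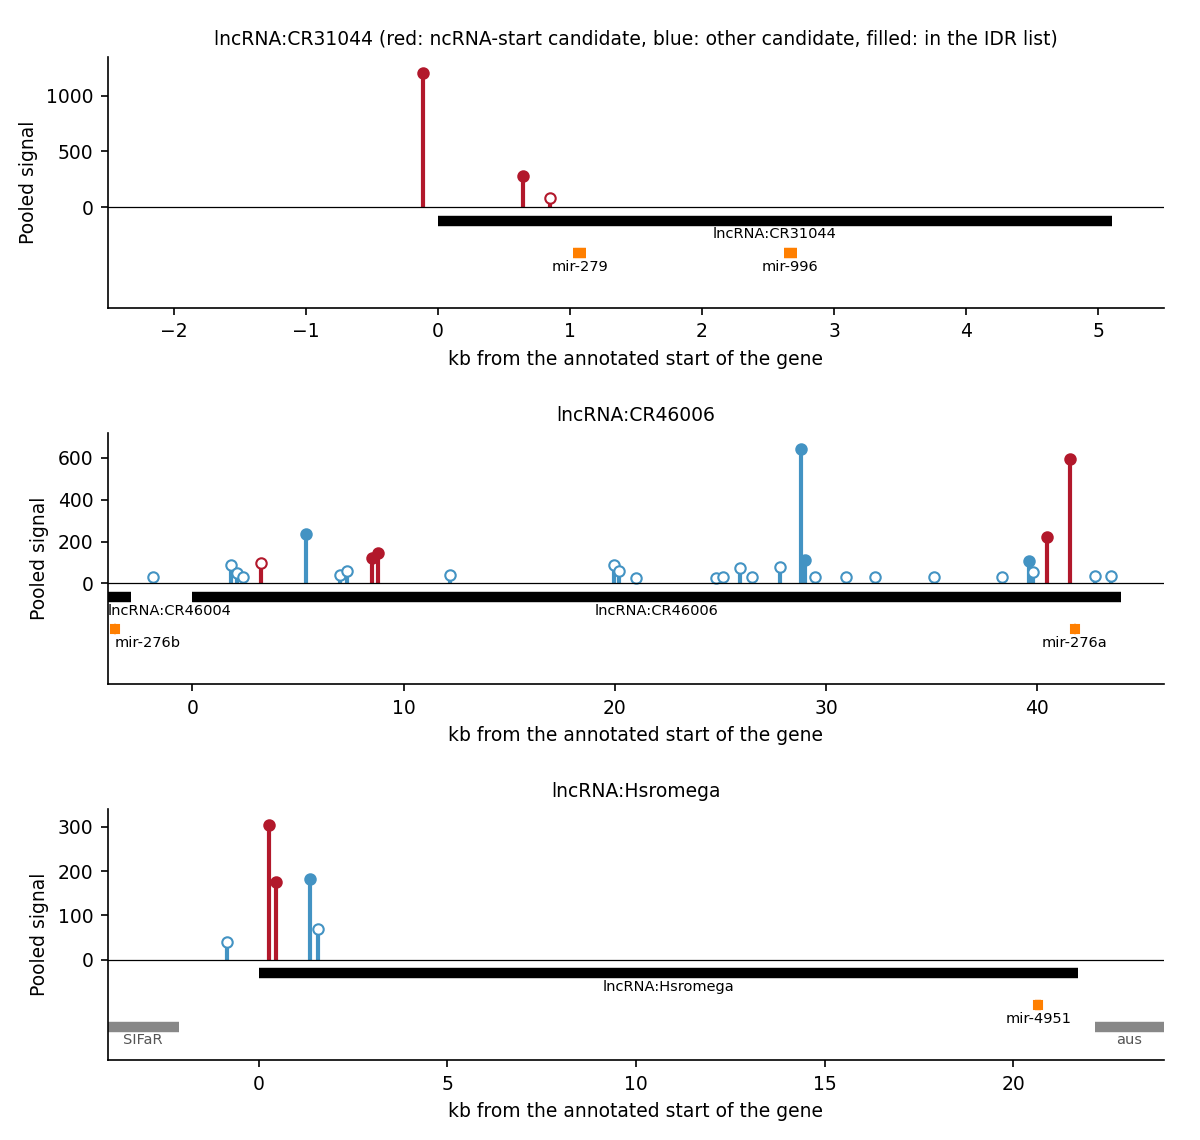
Pooled candidates (y axis, signal) along 3 microRNA-carrying transcripts (x axis, kb from the annotated start on the strand of the RNA). Red marks ncRNA-start candidates and blue other candidates, filled circles are in the IDR list, and bars below show ncRNAs (black), microRNA hairpins (orange) and coding genes (grey); the highest red stems are 1202 before lncRNA:CR31044, 593 before mir-276a and 303 at lncRNA:Hsromega.

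lncRNA:Hsromega is strongly induced by heat shock and forms nuclear speckles with RNA-binding proteins. It carried 2 IDR candidates, of signal 303 at -237 bp and 175 at -34 bp from an internal TSS. Both summits lay inside the gene, 257 and 460 bp from its annotated start. They overlapped one another and shared their replicate regions, with relative signals of 1.87, 1.90 and 1.16 (1.64 ± 0.415, SD, n = 3), above the median IDR peak in every replicate. It was the sole gene of 37 long non-coding RNAs with a given name that had an ncRNA-start candidate in the IDR list, and 10 of the 37 had any ncRNA-start candidate. The highest signals of the others were 90.4 at TS16, 72.3 at marge, 53.2 at acal, 47.9 at the piRNA precursor flam, 47.2 at TS2, 43.1 at noe, 41.4 at TS26, 27.7 at TS1 and 26.2 at iab8, all below the lowest signal in the IDR list. Of the 37 genes, 33 have a TSS over 1000 bp from coding TSSs. IDR peaks of signal 588 at 253 bp from a start of enrr and of signal 155 at 228 bp from one of Irar lay too near a coding TSS to be counted. Over all 583 genes with a candidate, 22.6% had one in the IDR list.

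The other lists of well-studied long non-coding RNAs had no IDR candidate. The roX RNAs lacked an ncRNA-start candidate, with the nearest candidate summit 3570 bp from the TSS of roX1 and 2394 bp from that of roX2. In the bithorax complex, whose ncRNAs are transcribed from Hox regulatory regions, iab8 had 1 candidate of signal 26.2, near the lowest value in the list, and bxd and iab4 had none. Other ncRNA starts in this region, picked after their values were seen, had higher ones outside the IDR list, with lncRNA:TS16 at up to 90.4 and asRNA:PS4, whose candidate lies inside Ubx, at 71.8. Of 5 RNAs with neural or behavioural roles, acal and noe had candidates with signals of up to 53.2 and 43.1, and yar, sphinx and CRG had none.

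Among the long non-coding RNAs known by number alone, lncRNA:CR44619 had the next highest candidate, at 469 bp, with a signal of 1005 and relative signals of 6.90, 3.93 and 4.76 (5.20 ± 1.53, SD, n = 3). Replicate 1 was the highest and replicate 2 the lowest here, as at CR31044. Its summit also lies within lncRNA:Vinr, which overlaps the start of CR44619 on the same strand. lncRNA:CR44339, at -117 bp and nearest to the coding gene of the Polycomb-group protein Psc, had signal 807 and relative signals of 4.73, 4.48 and 3.86. lncRNA:CR46102, transcribed against the strand of its host LpR2, a lipoprotein receptor, had signal 793 and relative signals of 5.26, 3.77 and 3.55. In both cases every replicate was over 3 times the median IDR peak.

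The coding genes named next were picked from the neighbours of the strongest candidates because their roles are known, and no share of such genes was computed. The gene osa, which codes for a subunit of the Brahma chromatin remodelling complex, holds lncRNA:CR46036 and lncRNA:CR46035 on its opposite strand. Their candidates had signals of 673 at -112 bp and 355 at -164 bp. Relative signal in replicates 1 to 3 was 3.31, 3.38 and 4.14 at CR46036 and 1.95, 2.14 and 1.59 at CR46035, so every value at CR46036 was above every value at CR46035. lncRNA:CR45997 in mbl, a splicing factor gene, had signal 646, and lncRNA:CR45808 in the kinase gene Hipk had signal 593. lncRNA:CR44331 lies opposite to puc, which codes for the JNK phosphatase, and had signal 362.

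lncRNA:CR44478 lies opposite to Socs36E, an inhibitor of JAK/STAT signalling, and had signal 378. lncRNA:CR44742 starts near vri, which codes for a repressor of the circadian clock, with its summit -1175 bp from the coding TSS, and had signal 508 and relative signals of 3.14, 2.30 and 2.54. lncRNA:CR45541 lies near the hexokinase gene Hex-A (signal 361) and lncRNA:CR45243 near fng, which codes for a glycosyltransferase that modifies Notch (signal 355). lncRNA:CR45820 in the kinase gene Eip63E had a signal of 322, and lncRNA:CR42746 in bun one of 328. These positions describe neighbourhood alone, since the files hold no expression values for either gene of a pair.

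All 25 genes with the strongest IDR candidates had pooled signals of 322 or more. lncRNA:CR44676 had signal 748, lncRNA:CR45640 695, lncRNA:CR44723 616, asRNA:CR43426 608, lncRNA:CR45595 453, lncRNA:CR44274 397 and lncRNA:CR45421 382. The region at CR44723 held 2 IDR summits, at 303 and 99 bp. Of the 14 genes with 3 ncRNA-start candidates, some were taken as examples. Their highest signals were 287 at lncRNA:CR45251, 250 at lncRNA:CR44661, 141 at lncRNA:CR45721 and 128 at lncRNA:CR44605. That these are below the values of the 25 genes follows from how the 25 were picked. Of the 25 genes with the strongest IDR candidates, only lncRNA:CR43260 on the X, with signal 365, was missing from a replicate's list. It had relative signals of 1.88 and 2.22 in replicates 2 and 3 and no overlapping candidate in replicate 1, whose nearest summit was 10561 bp away. It was the single IDR candidate of the 139 that a replicate did not list, and its mean of 2.05 ± 0.241 rests on n = 2. Being listed does not mean being strong, and 26 of the 139 were among the strongest of only 1 replicate. At 1 of these 26, lncRNA:CR43431 (signal 124), relative signals were 1.33, 0.218 and 0.222 in replicates 1, 2 and 3.

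**Figure D5:**
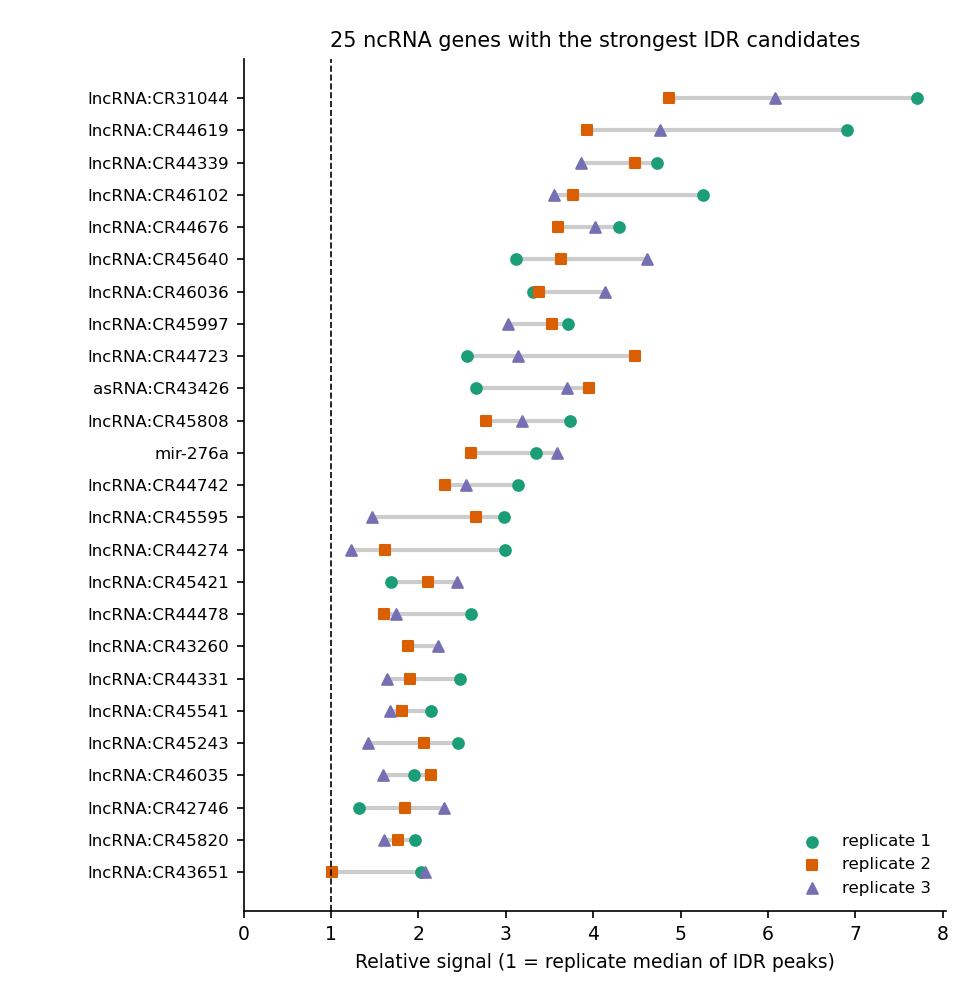
Relative signal (x axis, 1 is the replicate's median IDR peak, dashed) in each of the 3 replicates for the 25 ncRNA genes whose IDR candidates had the highest pooled signal, ordered from top to bottom by that signal. Grey lines join lowest and highest replicate; lncRNA:CR31044 spans 4.87 to 7.70, the lowest point is 1.01 at lncRNA:CR43651, and lncRNA:CR43260 has no value in replicate 1.

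Outside the long non-coding RNAs, 10 IDR candidates remained. Among antisense RNAs, asRNA:CR43426 stood at -205 bp with relative signals of 2.66, 3.95 and 3.70. asRNA:CR45999 followed with signal 174, and asRNA:bsAS, which runs against bs, the fly serum response factor gene, with signal 112. At microRNA ends, mir-4962 in the kinase gene Tlk had signal 235, mir-9377 in the mRNA decay factor gene Tis11 had 198 and mir-92b in jigr1 had 124, each inside a coding gene on the same strand. sisRNA:4, a stable intronic RNA of the neural repressor gene dpn, had signal 264. RNaseMRP:RNA, the RNA part of an enzyme that processes ribosomal RNA, had signal 145 at 256 bp downstream of its start.

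Base composition and motifs were set beside signal. The G and C content of the 201-base window had a median of 38.3% in IDR ncRNA-start candidates and of 43.3% in those outside the IDR list, and it was 36.8% in other distal IDR peaks. Motifs were sought on both strands. TATAAA was found in 31.7% of IDR ncRNA-start candidates, 21.3% of those outside the list and 23.2% of all candidates, while other distal IDR peaks had it in 31.1%. GAGAG, the core of GAGA factor sites, was found in 29.2% of ncRNA-start candidates and 28.5% of all candidates. Within the IDR list it was found in 30.9% of ncRNA-start candidates, against 29.0% of other distal and 41.1% of coding-start peaks.

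The other words were near the level of all candidates or rare. TCAGT, part of the initiator, was in 33.1% of ncRNA-start candidates and 32.1% of all candidates. TGANTCA, the AP-1 site, was in 5.31% of ncRNA-start candidates, against 4.45% of all candidates. AGGTCA, part of the site of nuclear receptors, was in 3.77% of ncRNA-start candidates and 3.61% of all candidates, and the E-box CACGTG in 1.82% of ncRNA-start candidates and 2.56% of all candidates. CACTGAGA, which overlaps TCAGT on its opposite strand, was in 2.09% of ncRNA-start candidates and 1.92% of all candidates. The coding promoter words TATCGATA and GGTCACAC were in 2 and 1 of the 716 ncRNA-start candidates, or 0.279% and 0.140% of them, against 0.617% and 0.700% of all candidates. Other distal candidates had them in 0.274% and 0.279%. For TATCGATA the interval at ncRNA-start candidates, 0.0338 to 1.01%, includes the shares of both other distal and all candidates. A match describes letters in a window and not a bound site.

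Placement of TATAAA relative to the start was counted as well, with its first base from -40 to -20 bp of the TSS and microRNA ends left out. It was present at 8 of 129 TSSs nearest to IDR ncRNA-start candidates (6.20%, interval 2.72 to 11.9) and at 19 of 558 TSSs of all ncRNA-start candidates (3.41%). Over all annotated TSSs it was present at 3.10% for ncRNAs and 6.86% for protein-coding genes. The 8 include CR31044, Hsromega and the mir-282 host CR43626, and the interval includes both overall shares.

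At the edges of the rule, the candidates just inside 500 bp were at asRNA:CR43469 (-499 bp, signal 37.4) and lncRNA:CR45542 (500 bp, signal 65.7), and those just outside were at mir-252 (-501 bp, signal 40.6) and lncRNA:CR44471 (-501 bp, signal 26.6). At the limit of 1000 bp from a coding TSS, lncRNA:CR43097 (1002 bp) and lncRNA:CR43969 (-1008 bp) were just inside, and lncRNA:CR44679 (-982 bp) and hpRNA:CR33940 (993 bp) just outside. The last 2 ncRNA-start candidates within the IDR list were at lncRNA:CR32636 and lncRNA:CR45973, with signals of 107 and 106, and the first 2 outside it were at lncRNA:CR32111 and lncRNA:CR43399, both with 105.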

How the data were processed

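Chromatin immunoprecipitation with sequencing was run by the authors on 3 biological replicates in 1 group, and the lists analysed here are on dm6. The text notes deposited with the lists say that each replicate, and the pool of all 3, was set against 1 shared control alignment to give candidate lists of 30000 regions, which IDR then thresholded. The names of the aligner and caller and the IDR cut-off were not given in the sources used here. The signal in the deposited lists was taken to be the authors' enrichment over the control alignment. It may grow with depth, so only ranks and ratios within 1 list were used. Beside it the authors' lists give -log10 q values, not used for ranking, and summit offsets. Depth is unknown because the lists hold no counts, and binomial intervals cover counting error only.

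Summits were matched to TSSs of all transcripts in Ensembl release 115 (BDGP6), and sequence was read from RefSeq Release 6, with Python 3.11.15, numpy 2.4.6, scipy 1.17.1, pandas 2.3.3 and matplotlib 3.10.9. Regions of a replicate were matched by an overlap of at least 1 bp, taking the strongest. Replicates were compared by exact sign-flip permutation. The matching and tests were tested on simulated data. The ncRNA-start candidates and gene lists were chosen with earlier results of these data known. Named were the ncRNA genes of IDR candidates, up to 25 by pooled signal, genes of the lists of small RNA hosts and well-known long non-coding RNAs (the rest by counts and range), 5 genes with 3 or more candidates, and the 2 candidates just inside and outside each limit; candidates at antisense RNAs, microRNA ends and other ncRNAs, and the placement of TATAAA, were added after their values were seen. The alternatives were other distances, gene starts only, merged regions, a stricter IDR cut, other overlap rules and list lengths, windows of 50 bp to each side, leaving out each replicate and, chosen after seeing the data, leaving out microRNA annotations.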

Additional observations from a re-analysis of the deposited data

How the results depend on the processing

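The ncRNA-start candidates exceeded other distal candidates under every alternative tried, by 5.27 to 12.1 percentage points in the share among the strongest of a replicate and by 0.0534 to 0.0784 in median relative signal. Leaving out one replicate gave 7.69 to 8.83 points, with 0.5 as the smallest p for 2 replicates. With 200 bp instead of 500 bp from an ncRNA TSS there were 328 candidates, 60 of them IDR, with 60.1% upstream and 51.2% within 100 bp. With 1000 bp there were 1283 and 229, with 48.1% upstream, 13.1% within 100 bp and a mean of 20.8% among the strongest. IDR peaks above the median signal alone left 73 candidates (10.2%). Gene starts alone put 33.6% inside a coding gene. The mean share among the strongest was 21.3% with an overlap of 50%, 17.1% with summits within 100 bp, 11.1% with the 2000 strongest and 41.7% with the 10000 strongest; in all 3 replicates it was 8.80%, 6.56% and 27.5% under the last 3 of these. Without one replicate the share among the strongest of the other replicates was 15.9% to 16.3%, and 11.9% to 12.6% of candidates were IDR peaks among the strongest of both others, which is lower by construction. The TCAGT share over that of all candidates was 1.03, and 0.904 with windows of 50 bp to each side; the cause was not tested. The ratios of rare words moved by over 1.5 times, within their counting error: CACTGAGA was at 0.628 with that window, against 1.09, and GGTCACAC at 0.428 with that window and 0.501 over other distal candidates, against 0.200. TATCGATA was at 1.02 over other distal candidates, against 0.453 over all candidates. Its ratio thus changed with the background, and it rests on 2 windows. Apart from the values given here, no value moved beyond the spread between replicates or the binomial interval, and no number of candidates by over 1.5 times. The 25 named candidates kept their side of the median IDR peak. They had been picked for high pooled signal from the same reads, which made this likely beforehand. The number of candidates and their positions have no value without a replicate, since the pooled list comes from the reads of all 3. No pairing between groups of samples was possible, because all samples form 1 group. Region classes were compared within each replicate, so the sign-flip test was paired by replicate. Unknown depth limits every statement on weak or missing candidates.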
